A study of Mus musculus with 9 samples.

Results

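Type I alveolar cells were followed through 9 genes that they are known for, Ager, Aqp5, Hopx, Pdpn, Cav1, Emp2, Rtkn2, Akap5 and Clic5, in lung tissue of control mice and of mice whose left lung had been irradiated. The genes were taken by name as known markers of the cell type, and no measured value entered the rule, although earlier results of these arrays were known when the list was made. A total of 8 of the 9 had at least 1 probe, out of 19698 genes measured in all, and each gene was read from its brightest probe. No probe was matched to Rtkn2, so it has no value here. The tissue came from 10-week-old male C57BL/6 mice, and each of the 9 samples was hybridised to 1 single-colour Agilent array. There were 4 control samples and 5 irradiated samples, described as tissue of the irradiated left lung. Anaesthesia with zoletil and rompun during irradiation is listed for both groups. The sample labels give neither the dose nor the irradiated volume nor the time after irradiation, so the irradiated samples are treated as 1 group, although the study's methods describe more than 1 dose, and both focal or neighbouring pieces and whole left lungs. Per the methods, the RNA on each array was pooled from triplicate experiments at a time point, so p-values measure the spread between these pools, which may be technical in part. With so few arrays, every value below has limited precision.

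Type I cells are the thin, flat epithelial cells that line most of the alveolar surface and across which gas is exchanged. They do not usually divide, and after injury they are replaced by type II cells, the surfactant-producing epithelial cells, which flatten and pass through a transitional state that carries keratins and stress genes. Levels of their genes are therefore commonly used to follow loss and renewal of the alveolar lining. In tissue RNA, fewer cells of a type and less RNA per cell cannot be told apart. All values are normalized log2 intensities, in which 1 unit is a 2-fold difference, and a difference is the irradiated mean minus the control mean.

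The type I genes were detected in every sample. All 12 probes of the 8 genes were well above background on all 9 arrays, and none of the arrays had a saturated gene spot. None of the 8 genes passed an adjusted p of 0.05 (limma, Benjamini-Hochberg adjustment over 39303 probes), where 131 probes, or 0.333% of all, did so in either direction and 75, or 0.191%, were higher in irradiated lung. At an unadjusted p under 0.05, 2 of the 8 genes, Pdpn and Aqp5, were past the threshold, as were 3906 of all probes. The irradiated mean was above the control mean for 7 of the 8 genes. Their median difference was 0.19, or 0.080 without control 2, beside 0.0085 over all genes by their brightest probe and -0.0037 over all probes tested.

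The stretches of 250 bases that precede the start sites of Pdpn, Aqp5 and Ager are shown first, because Pdpn and Aqp5 had the highest ratios of difference to error and Ager is the classical surface marker of the cell type. They are RefSeq sequences of build GRCm38.p6, at chr4:143299565-143299814 on the minus strand, chr15:99590778-99591027 on the plus strand and chr17:34597600-34597849 on the plus strand, written 5′ to 3′ along the gene. Capitals mark any match, on either strand, to 5 short motifs: CATTCC for TEAD factors, CAAGTG for Nkx2-1, AGATAA for GATA factors, GGGCGG for the GC box and TATAAA for the TATA box.
Pdpn: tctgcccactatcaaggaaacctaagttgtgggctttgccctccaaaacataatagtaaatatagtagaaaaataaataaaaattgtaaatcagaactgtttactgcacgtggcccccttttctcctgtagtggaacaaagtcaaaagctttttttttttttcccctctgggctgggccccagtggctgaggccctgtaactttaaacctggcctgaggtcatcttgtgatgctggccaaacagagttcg
Aqp5: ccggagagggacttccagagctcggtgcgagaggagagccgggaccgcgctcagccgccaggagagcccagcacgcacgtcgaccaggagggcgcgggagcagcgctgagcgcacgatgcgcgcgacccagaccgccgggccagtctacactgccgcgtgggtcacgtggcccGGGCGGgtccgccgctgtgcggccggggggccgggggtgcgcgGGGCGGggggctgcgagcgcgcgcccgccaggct
Ager: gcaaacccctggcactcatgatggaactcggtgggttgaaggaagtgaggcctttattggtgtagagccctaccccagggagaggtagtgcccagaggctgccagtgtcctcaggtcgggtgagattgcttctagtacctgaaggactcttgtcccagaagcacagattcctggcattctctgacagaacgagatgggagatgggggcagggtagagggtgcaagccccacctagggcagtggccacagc

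The Pdpn and Ager stretches hold no capitals, while that of Aqp5 holds 2 copies of the GC box. Of the Aqp5 stretch, 78.4% of bases are G or C, compared with 43.2% for Pdpn and 57.6% for Ager. Over windows that run from 250 bases before to 50 bases after the start, 10 windows were read for 8 of the genes. Hopx and Cav1 have 2 each, and no window was available here for Rtkn2. The GC box was in 6 of the 10 windows, against 35.7% of all 32851 windows. These windows belong to 6 of the 8 genes, namely Aqp5, Pdpn, Cav1, Emp2, Akap5 and Clic5. The Nkx2-1 motif was in 1 Hopx window, against 13.6% of all windows, and the TATA motif in 1 Cav1 window, against 13.6% of all. The Hopx match lies after the start and the Cav1 match 221 bases before it, both on the strand opposite to the gene. The TEAD motif, found in 14.7% of all windows, and the GATA motif, found in 11.2%, were in none of the 10. The absence says only that these letters are not in these windows.

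Pdpn encodes podoplanin, a mucin-like glycoprotein of the apical membrane that binds the cytoskeletal linkers ezrin and moesin and, on other cells, the platelet receptor CLEC-2. Its log2 intensity on the control arrays 1 to 4 was 14.92, 15.04, 15.12 and 15.00, and on the irradiated arrays 1 to 5 it was 15.40, 15.33, 15.70, 15.67 and 15.58. Every irradiated array lay above every control array, with the closest control and irradiated values at 15.12 and 15.33. The means were 15.02 ± 0.084 (SD, n = 4) in control and 15.54 ± 0.17 (SD, n = 5) in irradiated lung. The difference was 0.52 (SE 0.096, 95% interval 0.31 to 0.74), or 1.44-fold, with an adjusted p of 0.0631 by limma. In an exact two-sided permutation test over the 9 arrays, p was 0.00794, the smallest that this design can give. Of all 39303 probes, 2.5% separated the groups in this direction in the same complete way, as did 3.4% of the 19698 genes by their brightest probe. A second Pdpn probe also separated them. It gave 10.34, 9.32, 10.15 and 10.07 in the controls, and 10.69, 10.61, 10.65, 10.77 and 10.49 in the irradiated samples. Its difference was 0.67 (SE 0.19), with an adjusted p of 0.215 by limma.

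Ager encodes the receptor for advanced glycation end products, which in the lung lies mostly on the basal membrane of type I cells. Its control values were 15.46, 14.36, 14.79 and 15.35, and its irradiated values were 15.60, 15.46, 15.01, 14.92 and 15.43. The groups overlapped between 14.92 and 15.46, and the control arrays had the widest spread of any of the 8 genes (SD 0.51). The difference was 0.29 (SE 0.23, 95% interval -0.23 to 0.82), with an adjusted p of 0.78 by limma. The interval holds changes from 0.854-fold to 1.76-fold. The difference was 0.084 without control 2 and 0.45 without control 1.

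**Figure D1:**
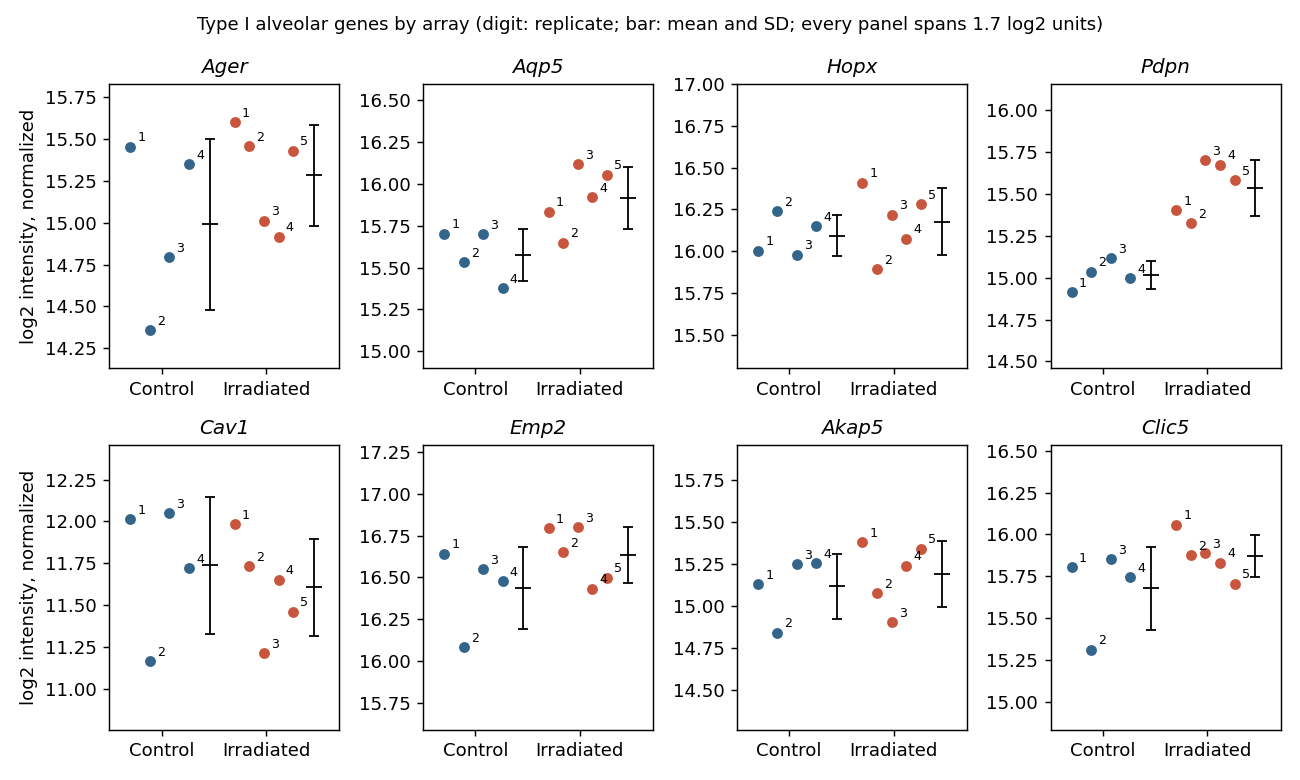
Normalized log2 intensity (vertical axis, 1.7 units in every panel) of the brightest probe of each of the 8 measured type I genes on the 4 control arrays (blue) and the 5 irradiated arrays (red), with replicate numbers beside the points and the group mean and SD to their right. Only the Pdpn panel has a gap between the groups, from 15.12 to 15.33, and control 2 is the lowest point for 5 of the 8 genes.

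Among the channel genes, Aqp5 was the one with the larger difference. It encodes the water channel aquaporin 5 of the apical type I cell membrane. Control values were 15.70, 15.53, 15.70 and 15.38, and irradiated values were 15.83, 15.65, 16.12, 15.92 and 16.05. A total of 4 of the 5 irradiated arrays lay above the highest control, and irradiated 2 lay below it. The difference was 0.34 (SE 0.11, 95% interval 0.085 to 0.59), or 1.26-fold, with an adjusted p of 0.308 by limma and 0.0317 before adjustment in the exact two-sided permutation test. A second Aqp5 probe differed by 0.48 (SE 0.21), with an adjusted p of 0.483 by limma and 3 of 5 irradiated arrays above the highest control. Clic5 encodes a chloride intracellular channel family protein that is tied to the cortical actin cytoskeleton. It ranged from 15.31 to 15.85 in control and from 15.70 to 16.06 in irradiated lung, with 3 of the 5 irradiated arrays above the highest control. The difference was 0.19 (SE 0.12, 95% interval -0.077 to 0.46) and its adjusted p was 0.686 by limma, and without control 2 the difference was 0.069.

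Cav1 and Emp2 act in the organisation of the plasma membrane. Cav1 encodes caveolin-1, the coat protein of the caveolae that are abundant in type I cells and in capillary endothelium. It was the 1 gene of the 8 with a lower irradiated mean. Its control values were 12.01, 11.16, 12.05 and 11.72, and its irradiated values were 11.98, 11.73, 11.21, 11.65 and 11.46. No irradiated array exceeded the highest control, and control 2 was lower than all 5 of them. The difference was -0.13 (SE 0.21, 95% interval -0.59 to 0.33), with an adjusted p of 0.917 by limma. It was -0.32 without control 2, -0.22 without irradiated 1, and -0.025, -0.037 and -0.030 without control 3, control 1 or irradiated 3. Emp2 encodes epithelial membrane protein 2, a protein with 4 membrane spans of the PMP22 family. It ranged from 16.08 to 16.64 in control and from 16.43 to 16.80 in irradiated lung. Its difference was 0.20 (SE 0.13, adjusted p 0.706 by limma), or 0.075 without control 2, and a second probe gave 0.22 (SE 0.24).

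Hopx and Akap5 were the genes with the smallest differences. Hopx encodes a homeodomain-only protein that does not bind DNA itself and that marks type I cells and their precursors. Its range was 15.98 to 16.24 in control and 15.89 to 16.41 in irradiated lung, so that the irradiated range enclosed that of the controls. The difference was 0.083 (SE 0.11, 95% interval -0.17 to 0.33, adjusted p 0.897 by limma), and a second Hopx probe gave 0.10 (SE 0.15). Without irradiated 1 the difference was 0.025, and without irradiated 2 it was 0.15. Akap5 encodes a scaffold that holds protein kinase A, protein kinase C and calcineurin at the membrane. It ranged from 14.84 to 15.26 in control and from 14.90 to 15.38 in irradiated lung, a difference of 0.070 (SE 0.12, 95% interval -0.21 to 0.35, adjusted p 0.931 by limma). It turned to -0.023 without control 2 and was 0.14 without irradiated 3. For both genes, a difference of 0.5 log2 units in either direction lies outside the interval. In order of their differences the 8 genes ran Pdpn, Aqp5, Ager, Emp2, Clic5, Hopx, Akap5 and Cav1, and each gene's 95% interval overlapped that of the next in order.

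**Figure D2:**
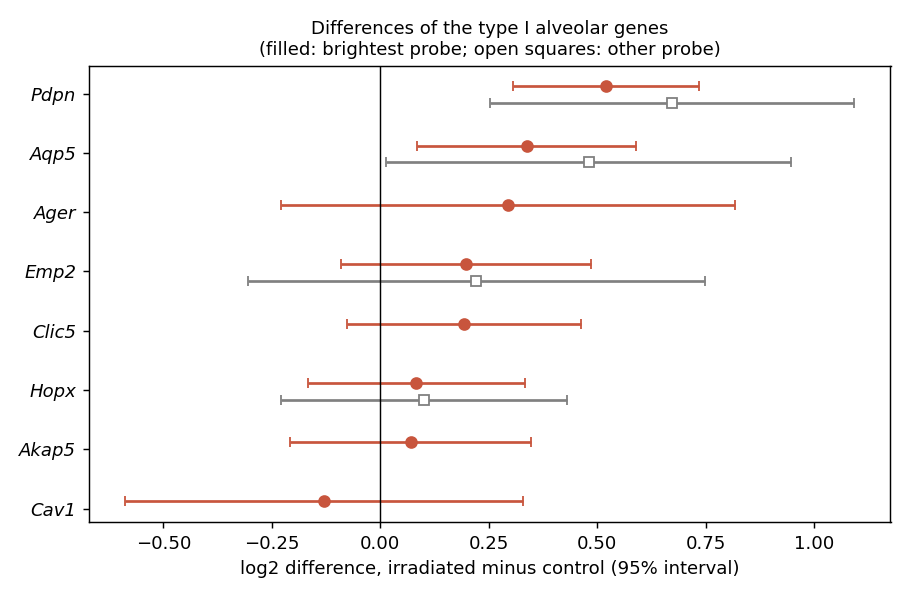
Difference in log2 intensity, irradiated minus control (horizontal axis), with its 95% interval, for the brightest probe (filled) and, where there was one, the other probe (open squares) of each of the 8 type I genes (vertical axis). The intervals of both Pdpn probes and both Aqp5 probes lie above 0, and those of the other genes contain 0.

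Several of the 8 genes were low or high on the same arrays. Control 2 was the lowest array for 5 of the 8 and its mean deviation from the control means was -0.26, against 0.13, 0.080 and 0.054 on the other controls. Irradiated 1 was the highest array for 4 of the 8, with a mean deviation of 0.35, and the other irradiated arrays were at 0.13, 0.15, 0.14 and 0.21. Irradiated 3 was the highest array for 3 of the 8, and control 3 was the highest for Cav1. The mean of irradiated 2 (0.126) fell just under that of control 1 (0.127), so the groups overlapped on this scale. For the brightest probes of Pdpn, Aqp5 and Hopx control 2 was not the lowest array, and for Hopx it was the highest control (16.24). The other probes of these 3 genes did have control 2 as their lowest array, at 9.32 for Pdpn, 12.56 for Aqp5 and 15.70 for Hopx. Such array levels were not particular to the 8 genes. By mean deviation, control 2 was also the lowest control for the lists of type II cells (-0.15) and endothelium (-0.094), described below. It was the highest control for general epithelial genes (0.19) and for club and ciliated cells (0.31). Irradiated 1 was the highest array for type II cells (0.19) and the lowest for club and ciliated cells (-0.74). The share over all genes was not counted.

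The scanned images fell into 4 pairs of 1 control and 1 irradiated array that shared the tilt and start of their spot rows and their local background, and irradiated 1 had no partner. Within these pairs, Pdpn was higher in the irradiated array by 0.41, 0.67, 0.56 and 0.58. With the pair as a block in limma, which leaves out irradiated 1, its difference was 0.55 (SE 0.060) and its adjusted p 0.0282, a threshold that 1.55% of 39246 probes passed in this direction. It was also past the threshold without irradiated 1 and without the block (0.55, adjusted p 0.0386), where 1.24% of all probes were past it in either direction. The paired differences of Aqp5 were -0.053, 0.59, 0.22 and 0.68 (adjusted p 0.221 by limma with the block). Those of Ager were 0.0021, 0.65, 0.12 and 0.081, and those of Cav1 were -0.28, 0.050, -0.40 and -0.26. For Ager, Emp2 and Clic5 the pair of irradiated 3 with control 2 gave 0.65, 0.72 and 0.58, and the other pairs of these 3 genes lay between -0.12 and 0.12.

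**Figure D3:**
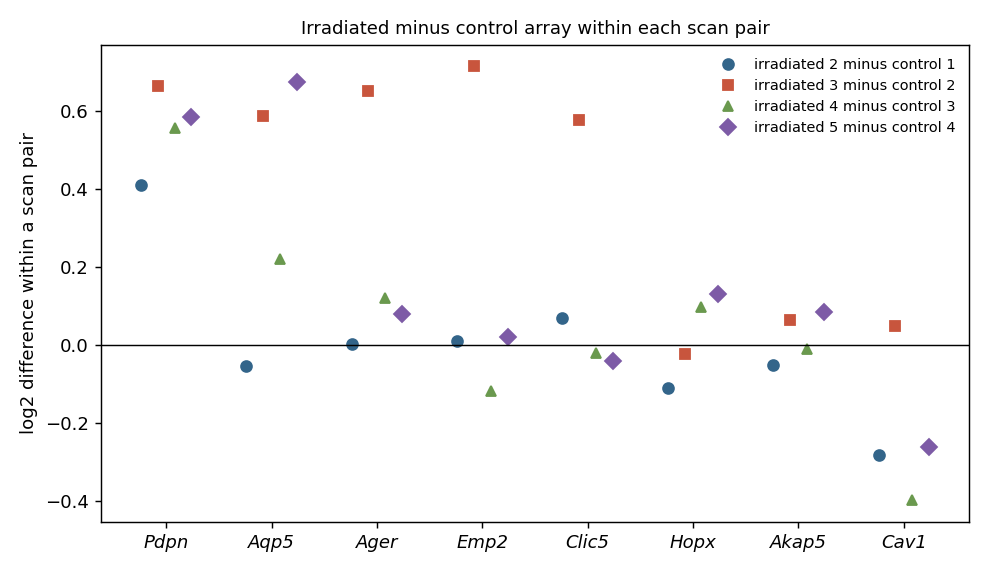
Difference in log2 intensity, irradiated minus control array (vertical axis), within each of the 4 scan pairs (symbols) for the 8 type I genes (horizontal axis). All 4 pairs lie above 0.4 for Pdpn, while for Ager, Emp2 and Clic5 1 pair, irradiated 3 minus control 2, lies far above the other 3.

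A further 20 genes of type I cells, all of them measured (Gramd2a under its older name Gramd2) and well above background on all arrays, had a median difference of 0.25, with 17 of the 20 higher in irradiated lung. In this list 2 genes rose past the adjusted threshold and none fell, where 0.191% of all probes rose. Ndnf, which encodes a secreted neurotrophic protein, was at 11.23, 10.94, 11.29 and 11.29 in control and at 12.39, 11.92, 11.82, 12.29 and 11.99 in irradiated lung, a rise of 0.89 (SE 0.14, adjusted p 0.0399 by limma). Spock2, which encodes a proteoglycan of the extracellular matrix, was at 13.10, 12.92, 13.24 and 13.15 in control and at 14.20, 13.99, 14.02, 13.81 and 13.53 in irradiated lung, a rise of 0.81 (SE 0.13, adjusted p 0.044 by limma). All irradiated arrays lay above all controls for both genes. When single arrays were left out, Ndnf stayed past the threshold only without irradiated 1, and Spock2 only without irradiated 1 or irradiated 5, with adjusted p up to 0.11 and 0.138.

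Complete separation of the groups in this direction was also seen for Gramd2 and Icam1, so for 4 of the 20 genes in all, against 3.4% of all genes. Both genes were singled out for that separation after their values were seen. Gramd2 differed by 0.62 (adjusted p 0.151) and Icam1, an adhesion molecule for leukocytes, by 0.78 (adjusted p 0.235, both by limma). Icam1 was at 10.84 on control 2, against 11.77 to 12.02 on the other controls, and this low value enlarges its difference. Icam1 is made by endothelium and leukocytes as well. Vegfa, Sec14l3 and Ahnak were the 3 genes with lower irradiated means, at -0.16, -0.086 and -0.082. Their 95% intervals contained 0 (-0.46 to 0.15, -0.34 to 0.17 and -0.37 to 0.20). The highest value of each was on a control array, namely control 4, control 1 and control 3. Averaged over the 20 genes, the deviation ran from -0.23 to 0.16 in the controls and from 0.17 to 0.45 in the irradiated samples, with control 2 again the lowest and irradiated 1 again the highest. On this scale the groups did not overlap, with control 3 (0.156) just below irradiated 5 (0.167).

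**Figure D4:**
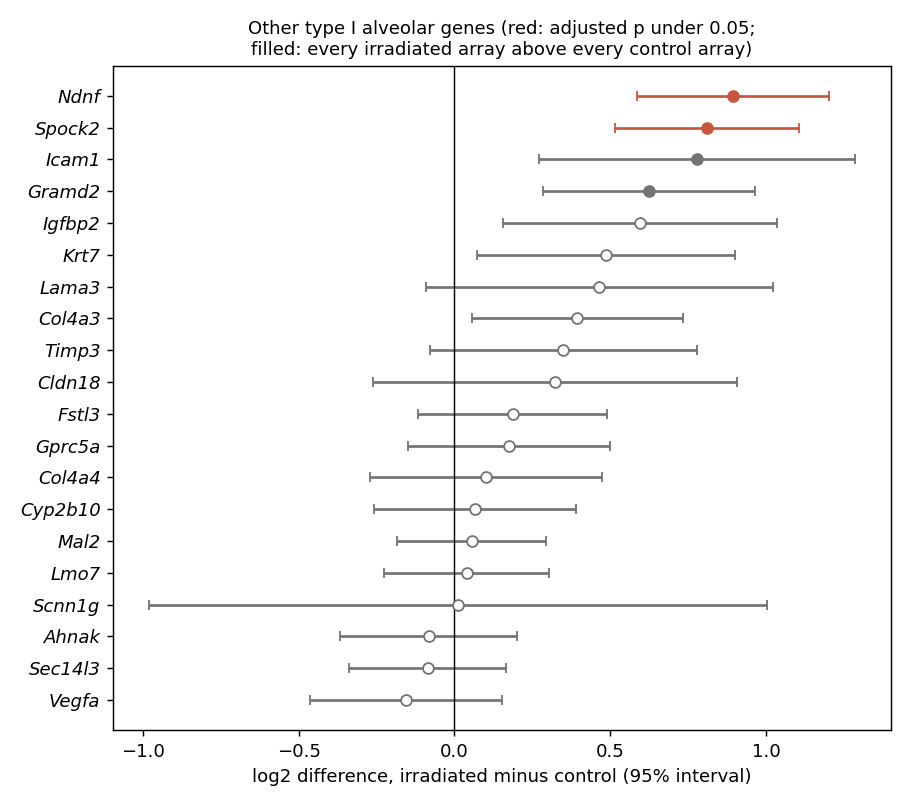
Difference in log2 intensity, irradiated minus control (horizontal axis), with its 95% interval, for 20 further genes of type I cells (vertical axis), in red where the adjusted p was under 0.05 and filled where every irradiated array lay above every control array. Ndnf and Spock2 are red, 4 genes are filled, and 17 of the 20 points lie above 0.

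The families and partners of the 8 genes gave no gene past the adjusted threshold. Among 9 caveola components the median difference was 0.093, and the genes with the largest differences were Cavin4, a muscle cavin (-0.51, or -0.12 without control 3), and Ehd2, a membrane ATPase at the caveolar neck (0.25, and 0.13 to 0.38 with single arrays left out). On control 3, the array whose skeletal muscle genes were high, Cavin4 was at 8.69, against 6.96, 6.92 and 7.47 on the other controls. Of the 10 other aquaporins, 7 were well above background on all arrays, and the median of the 10 was -0.13 (-0.26 with scaling to the 75th percentile). Of these, Aqp3, a glycerol-carrying channel of airway epithelium, was lower on all 5 irradiated arrays than on all controls. Its difference was -1.44 (SE 0.40, adjusted p 0.205 by limma), or -1.59 to -1.09 with single arrays left out. Irradiated 1 was lowest at 7.40, against 8.67 to 9.26 on the other irradiated arrays. Of all genes, 1.76% separated the groups in this way. Aqp1, the channel of capillary endothelium, differed by -0.39 (-0.46 to -0.25 with single arrays left out). The 3 other PMP22 family genes had a median of 0.19, with Emp3 at 0.31 and Emp1 at 0.19. The 4 other CLIC genes had a median of 0.070, with Clic6 at -0.24 and Clic1 at 0.18. When single arrays were left out, Emp3 ran from 0.10 to 0.41, Emp1 from 0.10 to 0.28, Clic6 from -0.33 to -0.14 and Clic1 from 0.059 to 0.26.

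Of 8 ligands of the Ager product, which include calcium-binding S100 proteins and the nuclear protein HMGB1, the median difference was 0.13 and none passed the adjusted threshold. S100b was at 10.18, 9.91, 9.93 and 10.01 in control and at 10.24, 11.06, 11.85, 11.49 and 11.70 in irradiated lung. Irradiated 1 lay close to the controls and the other 4 lay more than 0.8 above them, and the overall difference was 1.26 (SE 0.29, adjusted p 0.123 by limma). Without irradiated 1 it was 1.51, with an adjusted p of 0.00989. S100a9, a protein of neutrophils, differed by -0.80 (-1.09 to -0.50 with single arrays left out). Among 7 partners of podoplanin the median was 0.017 (0.043 with scaling to the 75th percentile), with Clec1b, which encodes its platelet receptor, at -0.56 (adjusted p 0.258) and the lymphatic chemokine gene Ccl21a at -0.53 (adjusted p 0.448). Among 9 partners of Akap5 the median was 0.018 (-0.0044 with scaling to the 75th percentile). Of the regulatory subunits of protein kinase A, Prkar2a differed by 0.23 and Prkar2b by -0.22. With single arrays left out, Prkar2a ran from 0.078 to 0.37 and Prkar2b from -0.28 to -0.15.

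The transcription factors and the YAP and TAZ pathway, which are known to control the type I and type II programmes, had no gene past the adjusted threshold either. Of 9 transcription factors, 8 had a lower irradiated mean, and the median difference was -0.27. Elf5 differed by -0.998 (adjusted p 0.234 by limma, and 0.0217 without irradiated 1). Foxa1 differed by -0.52 (adjusted p 0.205 by limma). Its adjusted p was 0.0248 with the scan pair as a block, where 2.81% of all probes passed in either direction. Foxa1 was 1 of 2 factors in this list with all 5 irradiated arrays below all controls, a separation shared by 1.76% of all genes. Over the 14 genes of the YAP and TAZ pathway the median was 0.042. The target gene Ccn2 was at 0.39 and the LATS-binding gene Ajuba at 0.35 (0.22 to 0.43 with single arrays left out).

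Of 12 genes of transitional alveolar cells, 3 rose, where 0.191% of all probes did, none fell, and the median difference was 0.62. Areg, which encodes the growth factor amphiregulin, was at 9.07, 9.18, 8.41 and 8.92 in control and at 10.83, 11.44, 12.04, 11.64 and 11.69 in irradiated lung, a rise of 2.63 (SE 0.24, adjusted p 0.00668 by limma). Cdkn1a, the p53-induced cell cycle inhibitor p21, rose by 1.90 (SE 0.31, adjusted p 0.044), and Lgals3, which encodes galectin-3, by 0.74 (SE 0.12, adjusted p 0.0457). When single arrays were left out, Areg stayed past the threshold each time, while Cdkn1a and Lgals3 did so only without irradiated 1, with adjusted p up to 0.138 and 0.152. All 3 are made by cells outside the epithelium as well, among them macrophages for Lgals3. Krt8, the keratin for which the transitional state is named, differed by 0.39 (adjusted p 0.367 by limma). The other keratins of the list differed less, Krt18 by 0.14 (adjusted p 0.847 by limma) and Krt19 by -0.0075. Krt19 and Nupr1 (-0.020) were the 2 genes of the list with lower irradiated means. Over 11 genes of type II cells, most of them for surfactant, the median was -0.038 (-0.090 with scaling to the 75th percentile) with none past the threshold, and over 8 general epithelial genes it was 0.12 with none past it. The difference between the type I list and these lists was not tested.

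**Figure D5:**
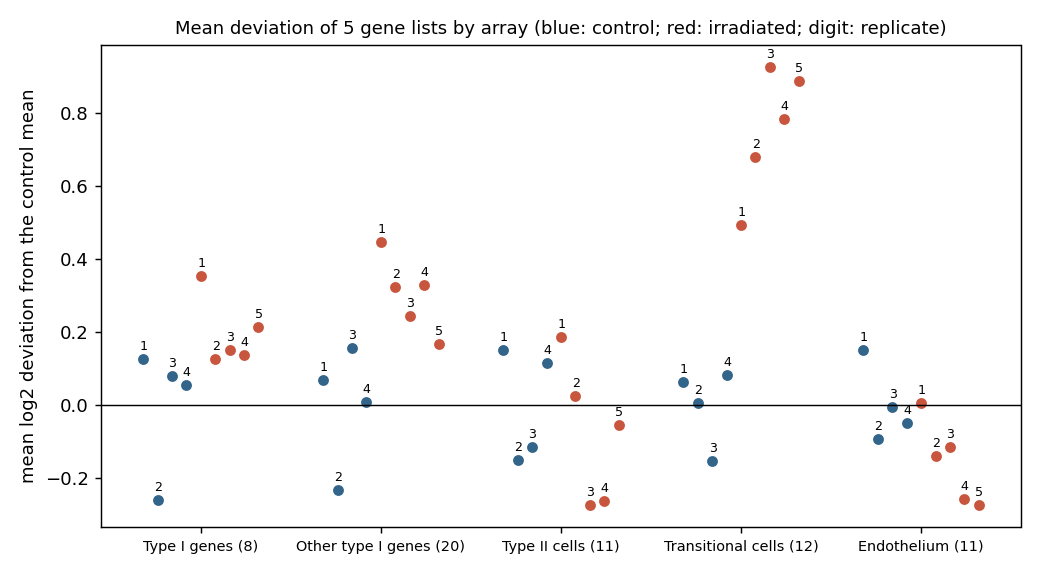
Mean deviation of log2 intensity from the control mean (vertical axis) for 5 gene lists (horizontal axis, number of genes in brackets) on each control array (blue) and irradiated array (red), with replicate numbers. Irradiated arrays lie above all controls for the further type I genes and the transitional genes, and overlap them for the 8 type I genes, type II cells and endothelium.

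Other cells of the tissue share some of the 8 genes, Pdpn with lymphatic endothelium, mesothelium and fibroblasts and Cav1 with blood endothelium. The mean deviation of 5 lymphatic genes was between -0.33 and 0.41 in control and between -0.93 and 0.24 in irradiated lung, and all 5 had lower irradiated means, although 3 of the 5 were well above background on all arrays. That of 5 mesothelial genes was between -0.74 and 0.98 in control and between -0.73 and 0.74 in irradiated lung. For 8 fibroblast genes it was between -0.18 and 0.27 in control and between -0.16 and 0.44 in irradiated lung. No gene of these 3 lists passed the adjusted threshold. Of 11 endothelial genes, 9 had lower irradiated means, with a median of -0.24 and none past the threshold. The part of these cells in the Pdpn and Cav1 values was not tested.

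Muscle genes set 2 arrays apart. Acta1, which encodes skeletal muscle actin, was at 14.67 on control 3, against 8.96 to 10.42 on the other 8 arrays, and the mean of its list of 8 genes was also highest there, although 3 of the 8 were well above background on all arrays. Myh6, a cardiac myosin gene, was at 7.33 on irradiated 1, against 15.87 to 16.98 on the others, and the mean of 10 cardiac muscle genes there was -5.44 relative to the controls. The mean deviation of 7 adipose genes was -2.95, -0.11, -1.24, -2.38 and -3.06 on irradiated 1 to 5, against -0.51 to 0.35 in control. All 7 had lower irradiated means. For 2 of the 7, all irradiated arrays lay below all controls, as for 1.76% of all genes. The part of these muscle and adipose genes in the type I values was not tested. Lists of 7 adipose (median -2.17), 5 smooth muscle (-0.57), 7 club and ciliated cell (-0.15), 11 leukocyte (-0.12) and 4 haemoglobin and haem genes (-0.15, or -0.29 when arrays were scaled to their 75th percentile) had no gene past the threshold. Without control 3 and irradiated 1 together, the median of the type I genes was 0.17, Pdpn differed by 0.59 (adjusted p 0.0794 by limma), and none of the 8 genes passed.

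The genes whose profile over the 9 arrays was most like the mean profile of the 8 type I genes were Htatip2, Pcyox1, Gpr4, Mmgt1 and Zfp429, among 15233 genes well above background on all arrays. The root-mean-square difference between the scaled profiles, in SD units, was 0.216, 0.243, 0.254, 0.261 and 0.285 for these genes. Among the 8 genes themselves it was lowest for Clic5 (0.415), followed by Emp2 (0.522), Ager (0.592) and Akap5 (0.726), and it was 0.896 for Aqp5, 0.945 for Cav1, 0.951 for Pdpn and 1.2 for Hopx. The mean profile thus described Clic5 and Emp2 more closely than it did Pdpn and Hopx. Each of the 8 genes is itself a part of that mean.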

How the data were processed

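The authors deposited single-colour Agilent scanner files with a processed spot intensity (background-subtracted, given to 3 significant digits), together with a table of normalized intensity values on a linear scale (median about 2055 per array). Per the study's methods, probes over 1.4 times local background were kept, quantile normalized and averaged over duplicated spots, and these steps were repeated here from the scanner files. Control spots and spots with outlier marks were left out, and a probe was kept where 4 or more of the 9 arrays exceeded that factor (39303 of 39429). Intensities were put on a log2 scale and then quantile normalized. They were tested with limma 3.58.1 (lmFit, eBayes with intensity trend) in R 4.3.3, with Benjamini-Hochberg adjustment over all probes, after a test on simulated data. Symbols came from the RefSeq table of GRCm38.p6 by accession (66.1% of probes). The authors' build is not given in the sources used here.

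The 8 genes and the other lists were chosen with earlier results of these data known. In each list of genes related to the 8, genes past the adjusted threshold were to be named (at most 5), or else the 2 with the largest differences. Lists of other cells are given by counts, except that Acta1 and Myh6 of the muscle lists were named after their values were seen. Gramd2, Icam1, Vegfa, Sec14l3, Ahnak, Krt8, Krt18, Krt19 and Nupr1 were also named outside this rule. A gene of the further type I list is not reported here, and the values of that list leave it out. Replicate numbers did not pair the arrays (correlation of deviations 0.0622, -0.0171, -0.0486 and -0.167), whereas the scan pairs, which were found from spot positions and local background, had 0.285, 0.201, 0.331 and 0.455. The alternatives were background correction, scaling, filters, the authors' table, array weights, blocks and leaving out arrays.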

Additional observations from a re-analysis of the deposited data

How the results depend on the processing

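Under 20 alternatives the median difference of the type I genes kept its direction, and leaving out 1 array gave 0.080 (without control 2) to 0.25. The number past the threshold was 1, Pdpn, when probes had to exceed background on all 9 arrays (adjusted p 0.0474), with array weights (0.0486), with the scan pair as a block (0.0282) and without irradiated 1 (0.0386), and so 0 to 1 when single arrays were left out. It was 0 under the others, among them the authors' table (0.35, adjusted p 0.228) and the replicate block (Pdpn 0.51, adjusted p 0.331), under which 1 probe of all passed. The difference of Pdpn stayed between 0.35 and 0.60. Over all probes, the count past the threshold went from 131 to between 5 (without control 3) and 485 (without irradiated 1) when 1 array was left out, and it was 44 without the intensity trend, 44 in the authors' table, 197 with the filter on all 9 arrays, 205 with array weights and 1101 with the scan block. Akap5 turned to -0.023 without control 2 (leaving out single arrays gave -0.023 to 0.14), and without control 3 and irradiated 1 together, an alternative chosen after seeing the data, Hopx was -0.013 and Prkar2a -0.0054 (0.025 to 0.15 and 0.078 to 0.37 with single arrays left out). S100b passed in 3 alternatives, Elf5 in 3 and Foxa1 in 1. Ndnf lost its call in 12 of the 20 and Spock2 in 13, Cdkn1a in 12 and Lgals3 in 13, while Areg lost it in 1, the replicate block (adjusted p 0.258), and kept it when each of the 9 arrays was left out. The causes were not tested.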
